A study of Mus musculus with 8 samples.

Results

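The 8 genes described here are *Afp* and *Gpc3*, a pair of genes of the fetal liver, with 4 nuclear factors of which *Zhx2*, *Zbtb20* and *Zfhx3* are known to hold *Afp* down, and with the fetal RNA-binding proteins *Lin28b* and *Igf2bp3*. They were taken by name, 8 of the 55385 genes in the deposited table, and all 8 were found there. Their RNA was measured by bulk RNA-seq in the livers of 8 male mice of 5 weeks, each fasted for 16 h before the liver was taken. The 4 *Usp39*-HKO mice carried floxed *Usp39* alleles, with loxP sites around the second exon, and an Albumin-Cre transgene, which acts in cells that express albumin. The 4 controls were littermates labelled WT, and the line was on a C57BL/6J background. Each library came from 1 mouse, and the tissue was sequenced whole, so that cells without Cre activity are part of every *Usp39*-HKO value.

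AFP, the fetal counterpart of albumin, is secreted by the hepatocytes of the fetus and is switched off within weeks of birth in mice. *Gpc3* encodes a glypican, a heparan sulfate proteoglycan tied to the cell surface by a lipid anchor, and is shut down over the same period. *Afp* returns in injured and regenerating liver, and both return in hepatocellular carcinoma, where they serve as markers. *Zhx2* lowers *Afp*, *Gpc3* and the imprinted RNA *H19* after birth, *Zbtb20* acts on the *Afp* promoter in the adult hepatocyte, and *Zfhx3*, also called ATBF1, binds AT-rich elements of the *Afp* enhancer and promoter. LIN28B blocks the maturation of let-7 microRNAs in fetal liver, and IGF2BP3 binds and stabilizes mRNAs in fetal tissue.

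The start-site sequences of the fetal pair are shown first, because they look very different although both genes are silenced after birth. These are the 250 bases before the RefSeq start (GRCm38.p6), read along the gene, at chr5:90490464-90490713 on the plus strand for *Afp* and at chrX:52613975-52614224 on the minus strand for *Gpc3*. Capitals mark matches to 5 motifs, searched on both strands and chosen with these sequences in view. The motifs are GTTAAT, letters found in HNF1 sites, its palindromic variant GTTAAC, the TATA box letters TATAAA, the CCAAT box, and the core of GC boxes, GGGCGG.
Afp: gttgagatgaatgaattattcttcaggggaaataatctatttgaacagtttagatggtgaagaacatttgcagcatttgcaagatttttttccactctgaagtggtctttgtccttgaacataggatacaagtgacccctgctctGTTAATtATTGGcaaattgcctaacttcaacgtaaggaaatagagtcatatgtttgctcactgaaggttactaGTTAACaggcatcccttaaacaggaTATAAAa
Gpc3: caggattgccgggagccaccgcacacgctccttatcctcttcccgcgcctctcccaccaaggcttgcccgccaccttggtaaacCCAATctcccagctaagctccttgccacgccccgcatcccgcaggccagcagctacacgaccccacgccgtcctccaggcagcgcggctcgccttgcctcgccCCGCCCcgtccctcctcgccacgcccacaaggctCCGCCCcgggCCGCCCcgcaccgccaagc

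The *Afp* window was AT-rich, with 36.0% GC and 1 CpG. It held GTTAAT, which occurs in 6.43% of the 32851 mouse promoters of the same length, and the variant GTTAAC, found in 2.56%. It also held the TATA box letters, found in 12.4%, and on the other strand the CCAAT box, found in 33.8%. The *Gpc3* window was CpG-rich, with 71.6% GC and 25 CpGs, and held CCAAT once and GGGCGG on the other strand 3 times, a motif found in 32.7% of promoters. Over all these promoters the median was 52.4% GC and 6 CpGs. A match describes letters only and is not evidence that a factor binds there. *Zhx2* has no entry in this promoter table.

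In GENCODE on GRCm38, *Afp* (ENSMUSG00000054932) lies at chr5:90490737-90508907 on the plus strand, in the albumin gene cluster, 14134 bases after the end of *Alb* and 10024 bases before the start of *Afm*. *Gpc3* (ENSMUSG00000055653) lies at chrX:52272426-52613950 on the minus strand. The nuclear factors are at chr15:57694665-57839832 (*Zhx2*, plus), chr2:160748708-160872998 (*Zhx3*, minus), chr16:42875881-43642602 (*Zbtb20*, plus) and chr8:107942644-108961630 (*Zfhx3*, plus). The RNA-binding proteins are at chr10:45376620-45486395 (*Lin28b*, minus) and chr6:49085223-49214957 (*Igf2bp3*, minus). Reads were counted over exons of all 8 genes, and no strand setting is given, so reads from genes on opposite strands cannot be told apart where their exons overlap. This concerns *Igf2bp3*, of whose exon bases 18.7% are shared with *Malsu1* on the opposite strand, and to a small degree *Zhx3*, with 2.86% shared with *Plcg1*. The exons of *Afp*, *Gpc3*, *Zhx2*, *Zfhx3* and *Lin28b* overlap no other gene.

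The libraries held 8589636 to 10418450 counts assigned to genes, at which 3 counts equal 0.288 to 0.349 CPM (counts scaled to a common library total). Levels are given as deposited FPKM, which corrects for depth and exon length. Differences between genotypes are log2 fold changes, above 0 where *Usp39*-HKO livers had more, from edgeR's quasi-likelihood test on the counts with TMM scaling, with their standard error (SE) and Benjamini-Hochberg adjusted p over the 14340 genes that reached 0.5 FPKM in at least 4 mice. Under this scaling the median log2 fold change of all genes was 0.00, whereas log2(FPKM + 1) was higher in *Usp39*-HKO livers by a median of 0.17, a shift that every comparison of FPKM carries. *Usp39* itself had 9.35, 10.4, 8.76 and 9.78 FPKM in controls and 8.37, 8.63, 8.70 and 8.07 in the livers labelled as deleted. The groups did not overlap and *Usp39* fell by 0.41 on the log2 scale (SE 0.11, edgeR adjusted p = 0.0212), a count over all exons of which 1 was targeted. The *Usp39* value was -0.35 without A474 (adjusted p = 0.0615) and -0.18 without TMM (adjusted p = 0.247), neither of them called. Liver identity was plain, with *Alb*, the defining hepatocyte gene, at 7956 ± 533 FPKM in the control group and 8423 ± 1155 after deletion of *Usp39* (SD, n = 4 for both). Mouse A474 stood furthest out among the *Usp39*-HKO livers on the first principal component, which carried 63.8% of the variance of the 1000 most variable genes, and had the largest TMM factor (1.19 against 0.911 to 1.09 in the other 7 mice). The control A475 alone held pancreas RNA, with 260 FPKM summed over 5 pancreatic enzyme genes against 2.45 to 3.46 elsewhere. Values that rest on A474 are therefore given with and without it.

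Of the 8 genes, *Lin28b* was too low to test. Among the other 7, 1 was called higher in *Usp39*-HKO livers (*Afp*), where 10.9% of all genes tested were called higher, and 2 were called lower (*Zhx2* and *Zhx3*), where 11.6% of all genes were called lower. In either direction the share of all genes called was 22.5%. By deposited FPKM, 2 genes did not overlap with the controls and were higher (*Afp* and *Igf2bp3*), against 23.9% of all genes, and 1 was lower (*Zhx3*), against 4.81%. The split of calls over all genes depended on the scaling, with 1561 higher and 1664 lower as reported but 3525 higher and 696 lower without TMM.

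**Figure D1:**
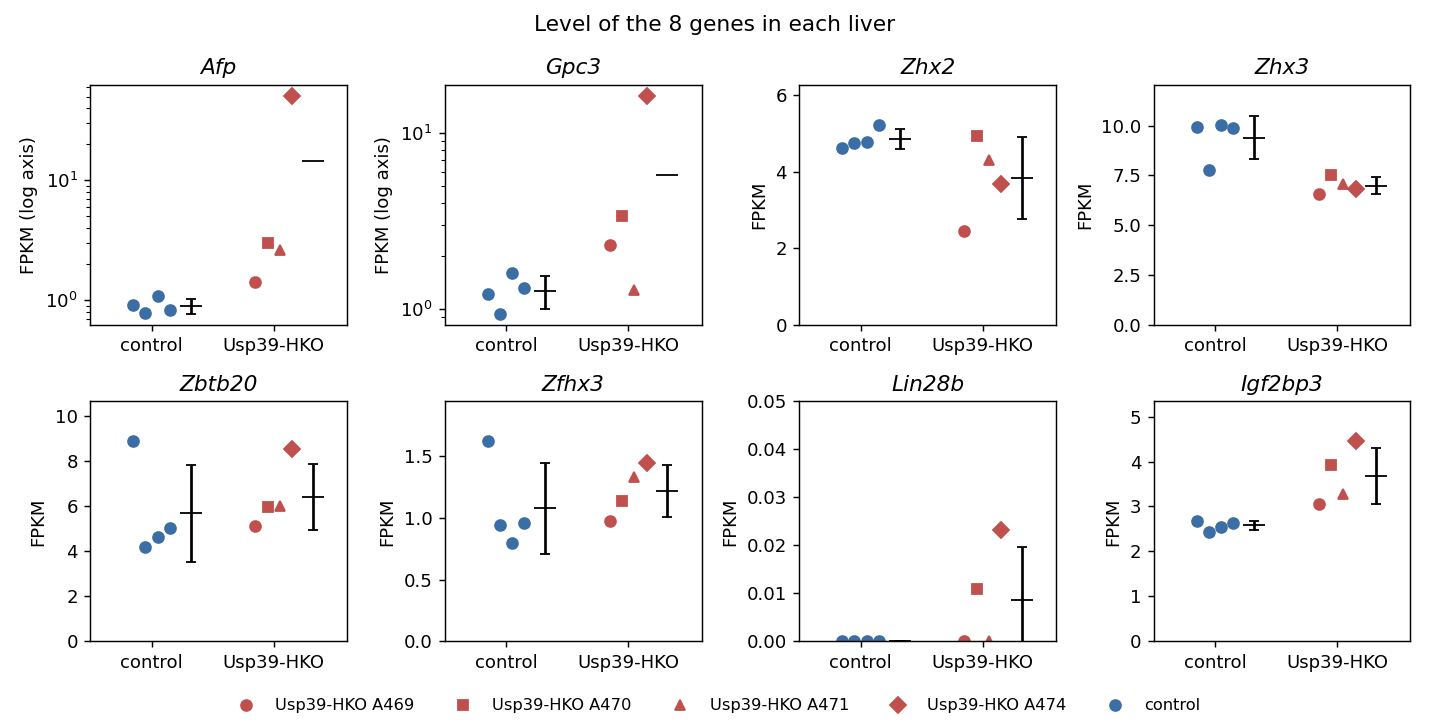
FPKM of the 8 genes in each of 4 control (blue) and 4 Usp39-HKO (red) livers, on a log axis for Afp and Gpc3 and a linear axis for the others. Horizontal bars are group means and vertical bars the SD (n = 4), left out for Afp and Gpc3 in Usp39-HKO livers, where it exceeds the mean, and ending at 0 for Lin28b. Mouse A474 (diamond) lies at 50.9 for Afp and 16.2 for Gpc3, far above the other Usp39-HKO livers, but among them for Zhx2 and Zhx3.

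In the controls the genes ranked, by mean FPKM, as *Zhx3* (9.39), *Zbtb20* (5.69), *Zhx2* (4.84), *Igf2bp3* (2.58), *Gpc3* (1.27), *Zfhx3* (1.08), *Afp* (0.896) and *Lin28b* (0). The values of the controls overlapped between *Zhx3* and *Zbtb20*, between *Zbtb20* and *Zhx2*, and among *Gpc3*, *Zfhx3* and *Afp*, so those neighbors did not separate beyond the spread of the mice. The fetal pair was thus measured at about the level of *Zfhx3* in control livers, and the *Afp* values there rested on 26 to 31 counts per library.

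*Afp* was above all controls in every *Usp39*-HKO liver, but by very unequal amounts. The controls had 0.905, 0.779, 1.07 and 0.826 FPKM (A468, A472, A473 and A475). The *Usp39*-HKO livers had 1.41, 3.0, 2.65 and 50.9 FPKM (A469, A470, A471 and A474), which is 1.57, 3.35, 2.95 and 56.9 times the control mean. The lowest *Usp39*-HKO value lay above the highest control, and A474 lay apart from both groups. *Afp* rose by 3.68 on the log2 scale (SE 1.04, edgeR adjusted p = 0.0263), and the exact permutation test on FPKM gave p = 0.029 (two-sided), the smallest that 4 against 4 mice allow. Of the *Afp* counts in the *Usp39*-HKO livers, 87.4% came from A474.

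The size of the *Afp* difference depended on A474, and its call on the method. Without A474 the *Usp39*-HKO livers averaged 2.35 ± 0.837 FPKM (SD, n = 3), the log2 fold change was 1.19 and *Afp* was still called, with a smaller SE of 0.26 (edgeR adjusted p = 0.0147). With A474 kept, the edgeR call was lost when any 1 control was left out (edgeR adjusted p = 0.0616 to 0.0743), with limma on log2(FPKM + 1) (adjusted p = 0.155), with a robust prior in edgeR (adjusted p = 0.117) and with voom weights (adjusted p = 0.246). DESeq2 gave no p for *Afp*, since its Cook's distance in A474, 32, was past the limit of 10.9.

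*Gpc3* was highest in A474 as well, but the other *Usp39*-HKO livers did not all stand above the controls. The controls had 1.21, 0.938, 1.6 and 1.32 FPKM, and the *Usp39*-HKO livers had 2.30, 3.35, 1.29 and 16.2. Mouse A471 lay within the controls, at 1.01 times their mean, while A469, A470 and A474 were at 1.81, 2.64 and 12.8 times. The log2 fold change of *Gpc3* was 1.89 (SE 0.64), which did not pass the threshold (edgeR adjusted p = 0.0539, exact permutation p = 0.0857). Without A474 it was 0.68 (adjusted p = 0.178), and without A471 it was 2.21 and passed (adjusted p = 0.0208). It also passed without A469 (2.15, adjusted p = 0.0291), while limma on log2(FPKM + 1) gave 1.11 (adjusted p = 0.164).

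*Afp* and *Gpc3* were both highest in A474, yet they did not order the other livers alike. A471 had more *Afp* than A469 and less *Gpc3*. Taken as deviations of log2 CPM from each genotype's mean, the pair had r = 0.90 over 8 mice and r = 0.15 over the 7 mice without A474. Ranked by how far A474 exceeded the median of the other 3 *Usp39*-HKO livers on that scale, *Afp* was 1st of the 14340 genes and *Gpc3* 10th, with differences of 4.08 and 2.55. On that TMM-scaled scale A474 did not top genes in general, being the highest *Usp39*-HKO liver for 3646 genes, or 25.4%. The share by deposited FPKM, which lacks the TMM scaling, was not worked out. Counts of genes topped by A474 in FPKM, given below, therefore have no such share beside them.

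**Figure D2:**
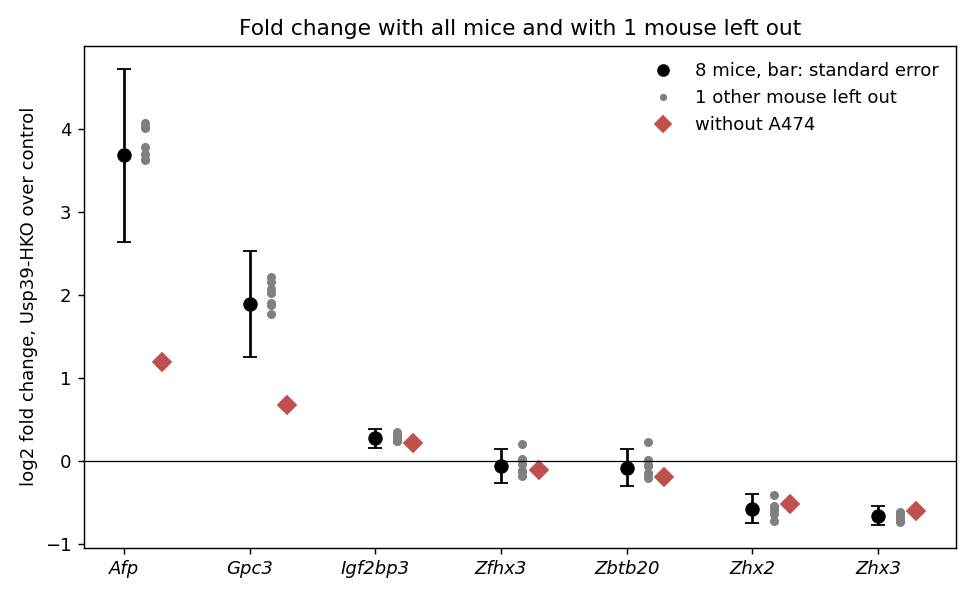
Difference between genotypes (log2 fold change, above 0 where Usp39-HKO is higher) for the 7 genes tested, from edgeR with all 8 mice (black, bars are the standard error), with 1 of the other 7 mice left out (grey) and without A474 (red diamond). The value of Afp goes from 3.68 to 1.19 and that of Gpc3 from 1.89 to 0.68 without A474, while those of Zhx2 and Zhx3 stay below 0 in every case.

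Among the nuclear factors, *Zhx3*, which pairs with other ZHX proteins, was the steadiest difference. The controls had 9.92, 7.76, 10.0 and 9.86 FPKM and the *Usp39*-HKO livers 6.57, 7.52, 7.07 and 6.80. Every *Usp39*-HKO liver was below every control, although A472, the lowest control, lay close to A470. *Zhx3* fell by 0.66 on the log2 scale (SE 0.11, edgeR adjusted p = 0.00267, exact permutation p = 0.029, the smallest possible). It was called in all 8 fits with 1 mouse left out and in all 9 other settings, with adjusted p between 4.7e-06 and 0.0249.

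*Zhx2*, the postnatal repressor of *Afp* and *Gpc3*, was called lower by a narrow margin. The controls had 4.62, 4.75, 4.78 and 5.22 FPKM and the *Usp39*-HKO livers 2.44, 4.93, 4.30 and 3.66. A470 lay within the controls and A469 was the lowest. *Zhx2* fell by 0.57 on the log2 scale (SE 0.18, edgeR adjusted p = 0.0362). By deposited FPKM the groups overlapped. With FPKM divided by the TMM factors they separated, at 5.07 to 5.55 for the controls against 2.41 to 4.54. The share of all genes that separate on this second scale was not worked out. The call was kept in 2 of the 8 fits with 1 mouse left out. Without A469 the value was -0.41 (adjusted p = 0.0616), and without TMM it was -0.33 (adjusted p = 0.193).

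Between genotypes *Zhx2* was called lower and *Afp* higher, and whether the level of *Zhx2* bears on *Afp* was not tested. The order of the *Usp39*-HKO livers by each gene is given as a description. A469 had the least *Zhx2* and also the least *Afp* of the *Usp39*-HKO livers, and A470 had the most *Zhx2* and the second most *Afp*. Over the 7 mice without A474 the deviations of *Afp* and *Zhx2* from their genotype means had r = 0.88, and over all 8 mice r = -0.05, so that this value turned on 1 mouse.

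*Zbtb20*, the zinc-finger repressor of *Afp* in the adult hepatocyte, did not pass the test. The controls had 8.87, 4.19, 4.65 and 5.03 FPKM and the *Usp39*-HKO livers 5.10, 5.97, 6.0 and 8.51. The groups overlapped widely, with 1 high liver in each, A468 and A474. The log2 fold change was -0.08 (SE 0.22, adjusted p = 0.833), turning to 0.22 without A468. A474 thus held the highest *Afp* and the highest *Zbtb20* of the *Usp39*-HKO livers.

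*Zfhx3* looked much the same. The controls had 1.62, 0.943, 0.794 and 0.956 FPKM and the *Usp39*-HKO livers 0.971, 1.14, 1.33 and 1.44. Its log2 fold change was -0.07 (SE 0.20, adjusted p = 0.855), and 0.20 without A468, which again held the highest control value. For both genes the sign also turned with unscaled counts, to 0.17 for *Zbtb20* and 0.18 for *Zfhx3*, where the median of all genes was itself 0.24.

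The fetal RNA-binding proteins were at opposite ends of detection. *Lin28b* had 0 counts in all 4 controls and 0, 1, 0 and 2 counts in the *Usp39*-HKO livers. These are under 3 counts per library, so *Lin28b* was not detectable at this depth in either genotype, A474 included, and no fold is given.

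*Igf2bp3* was measured in every liver, at 2.68, 2.44, 2.55 and 2.64 FPKM in the controls against 3.05, 3.93, 3.29 and 4.45 in the *Usp39*-HKO group. The groups did not overlap (exact permutation p = 0.029, the smallest possible), and A474 was again the highest. The groups also separated with FPKM divided by the TMM factors, at 2.64 to 2.94 for the controls against 3.02 to 3.74, a scale without a share of all genes beside it. After TMM scaling the log2 fold change was 0.27 (SE 0.11), which did not pass the threshold (edgeR adjusted p = 0.105). It passed on unscaled values, at 0.52 without TMM (adjusted p = 0.0163) and 0.38 with limma on log2(FPKM + 1) (adjusted p = 0.0348), where the median gene lay at 0.24 and 0.17. Its overlapping neighbor *Malsu1* had a log2 fold change of -0.03 (adjusted p = 0.912).

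Of the 4 albumin family genes, all tested, only *Afp* was called higher and only *Afm* lower, against 10.9% and 11.6% of all genes. *Alb*, the major serum protein, had a log2 fold change of -0.14 (adjusted p = 0.626) and *Gc*, the vitamin D-binding protein, of -0.11 (adjusted p = 0.638), and both values were above 0 without TMM. *Afm*, which carries vitamin E and follows *Afp* in the cluster, fell by 0.38 (SE 0.10, adjusted p = 0.0239), although its FPKM overlapped between the groups and it was called in 4 of the 8 fits with 1 mouse left out. In A474 *Alb* had 7661 FPKM, within the 7281 to 9767 of the other *Usp39*-HKO livers, and *Afm* had 69.5. With FPKM divided by the TMM factors, however, *Alb* in A474 was 6444, the lowest of the 8 livers. The other *Usp39*-HKO livers then had 6707 to 9653 and the controls 7626 to 9065.

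Among the 6 glypicans, 4 were tested and 1 passed, where 10.9% of all genes were called higher. *Gpc6* rose by 1.15 (SE 0.28, adjusted p = 0.0143), from 0.356 to 0.581 FPKM in controls to 0.673, 1.08, 1.55 and 1.87 in the *Usp39*-HKO livers, with A474 the highest, and it passed without A474 (0.97, adjusted p = 0.0446). *Gpc1* had a value of 0.79 (adjusted p = 0.179), and 1.09 without A469, where it was called (adjusted p = 0.0176) and 3 glypicans were higher. *Gpc4*, the most abundant glypican at 25.1 ± 1.59 FPKM in controls (SD, n = 4), had -0.16 (adjusted p = 0.225), and 0.07 without TMM. *Gpc2* was too low to test and *Gpc5* was listed at 0 in all mice. The median over the tested glypicans was 0.97, where the median of all genes was 0.00.

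In the ZHX family *Zhx2* and *Zhx3* were called lower, where 11.6% of all genes were called lower. *Zhx1* had -0.24 (adjusted p = 0.271) and *Homez*, the remaining member, 0.12 (adjusted p = 0.745). The number called lower was 1 without TMM and 1 to 2 with 1 mouse left out. Without the control A472, which had the least *Zhx1* of its group, *Zhx1* was also called lower, at -0.38 (adjusted p = 0.0328), and without TMM its value was 0.0013. The median over the 4 was -0.41, where the median of all genes was 0.00.

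Genes reported to be controlled by *Zhx2* in mouse liver moved in both directions. Of 6 such genes besides *Afp* and *Gpc3*, all were tested, with a median of 0.46. Of these, 3 were called higher, against 10.9% of all genes, and 2 lower, against 11.6%. The list was not split by the direction in which *Zhx2* is reported to act on each gene. The median is therefore no measure of *Zhx2* activity. *H19*, the imprinted fetal RNA, had 0.664, 5.54, 1.09 and 2.38 FPKM in the controls against 70.5, 90.1, 32.5 and 835 in the *Usp39*-HKO group. It rose by 6.39 (SE 1.08, edgeR adjusted p = 0.00267), and by 4.52 without A474 (adjusted p = 0.0012). *H19* ranked 3rd by the excess of A474 over its group, but unlike *Afp* it was at least 13.5 times the control mean in each *Usp39*-HKO liver. *Cyp2a4*, a steroid hydroxylase that is higher in females, rose by 3.34 (SE 0.31, adjusted p = 0.00023), with 91.8 to 212 FPKM against 10.7 to 17, and here A474 was not high, at 113. *Lpl*, the lipoprotein lipase made by fetal but not adult hepatocytes, rose by 1.02 (SE 0.23, adjusted p = 0.0089). *Elovl3*, a fatty acid elongase, fell by 2.82 (SE 0.50, adjusted p = 0.0033), and the male-biased *Cyp4a12a* fell by 2.92 (SE 0.81, adjusted p = 0.0248). The *Cyp4a12a* call was lost without A468, A470 or A473 (adjusted p = 0.0687, 0.0591 and 0.0554) and with a robust prior (adjusted p = 0.114). *Mup20*, a major urinary protein, had -0.10 (adjusted p = 0.935).

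**Figure D3:**
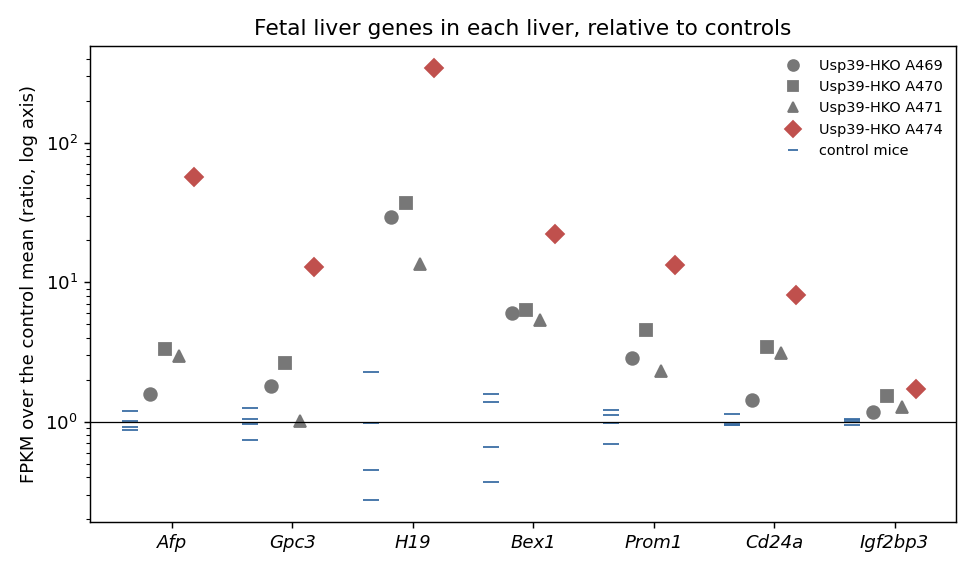
FPKM of 7 fetal liver genes in each liver divided by the control mean (ratio, log axis), with control mice as blue dashes, Usp39-HKO mice A469, A470 and A471 in grey and A474 in red. A474 lies highest for all 7 genes, at 56.9 for Afp, 12.8 for Gpc3 and 346 for H19, whereas A471 lies at 1.01 for Gpc3. The 7 are a selection. H19, Bex1, Prom1 and Cd24a are the called fetal genes with the largest changes, which high values in A474 themselves enlarge. Among fetal genes not drawn, Aldoa was higher in A470 (64.8 FPKM) than in A474 (59.1 FPKM).

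The wider list of oncofetal and fetal hepatocyte genes held 12, of which 8 were tested, with a median log2 fold change of 1.17. Of these, 5 were called higher, against 10.9% of all genes, and none lower, against 11.6%. *Peg3*, an imprinted gene, was the exception without A474, at -0.86 and called lower (edgeR adjusted p = 0.0112), against -0.57 with all mice (adjusted p = 0.10). Besides *H19*, *Bex1* rose by 3.0 (SE 0.59, adjusted p = 0.0054), the stem-cell antigen *Prom1* by 2.24 (SE 0.50, adjusted p = 0.0096) and the surface sialoglycoprotein gene *Cd24a* by 1.73 (SE 0.38, adjusted p = 0.0091). Without A474 these values were 2.34, 1.5 and 1.21, and all 3 passed. By deposited FPKM, A474 was the highest *Usp39*-HKO liver for 10 of the 12 genes, *Igf2* among them with only 3 counts in A474. Not all fetal growth genes were present, since *Igf2*, the neighbor of *H19*, had at most 0.0553 FPKM in any liver and was not tested, and *Dlk1* had at most 0.0867 FPKM in the other livers and 0.615 in A474.

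The activators of the *Afp* promoter and enhancers were all tested, and of the 10, 1 was called higher and 3 lower, with a median of -0.22. Over all genes tested, 10.9% were called higher and 11.6% lower. *Onecut1*, the hepatoblast factor HNF6, rose by 1.22 (SE 0.28, adjusted p = 0.0108), from 0.736 to 1.11 FPKM in controls to 3.75, 1.72, 1.78 and 2.69. *Cebpa*, which drives hepatocyte maturation, fell by 0.67 (SE 0.14, adjusted p = 0.0075), with 84.6 to 119 FPKM against 121 to 152. *Nr5a2*, also known as fetoprotein transcription factor, fell by 0.52 (SE 0.15, adjusted p = 0.0280) and *Foxa3* by 0.46 (SE 0.13, adjusted p = 0.0233). Both of these overlapped in FPKM, and with 1 mouse left out *Nr5a2* was called in 2 of 8 fits and *Foxa3* in 4.

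Of 6 other reported repressors, all were tested, 3 were called higher and 1 lower, with a median of 0.45. The shares of all genes were 10.9% and 11.6%. One of the 6, *Foxa1*, is also in the list of activators. *Trp53*, which represses *Afp* through its promoter, rose by 0.77 (SE 0.14, adjusted p = 0.0035), with 8.47, 12.6, 14.6 and 13.2 FPKM against 5.91 to 6.13 in controls. *Jun*, an AP-1 subunit, rose by 0.71 (SE 0.19, adjusted p = 0.0212), and the corepressor *Ctbp2* by 0.71 (SE 0.21, adjusted p = 0.0303). With 1 mouse left out, *Trp53* was called in 8 of 8 fits, *Jun* in 4 and *Ctbp2* in 3. *Nr3c1*, the glucocorticoid receptor, fell by 0.33 (SE 0.11, adjusted p = 0.0496), a call lost in 7 of the 8 fits with 1 mouse left out. *Foxa1* had 0.18 (adjusted p = 0.314) and *Ctbp1* 0.20 (adjusted p = 0.183).

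In the Lin28, let-7 and IGF2BP axis 7 of 12 genes were tested, with a median of -0.08. None was called higher (10.9% of all genes) and 1 was called lower (11.6% of all genes). That gene, *Dis3l2*, the nuclease that degrades let-7 precursors tailed after LIN28 binding, fell by 0.35 (SE 0.12, adjusted p = 0.0487) and was called in 2 of the 8 fits with 1 mouse left out. Beside *Lin28b*, *Lin28a*, *Igf2bp1*, *Hmga2* and *Trim71* were too low to test. Of the 11 ligands and partners of GPC3, 5 were tested, with a median of -0.13. Of these, 1 was called higher (10.9% of all genes) and 1 lower (11.6% of all genes). *Sulf2*, a sulfatase that edits heparan sulfate, rose by 0.52 (SE 0.11, adjusted p = 0.0076), and *Furin*, the convertase that cleaves GPC3, fell by 0.43 (SE 0.14, adjusted p = 0.0422), which was called in 1 of the 8 fits with 1 mouse left out.

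**Figure D4:**
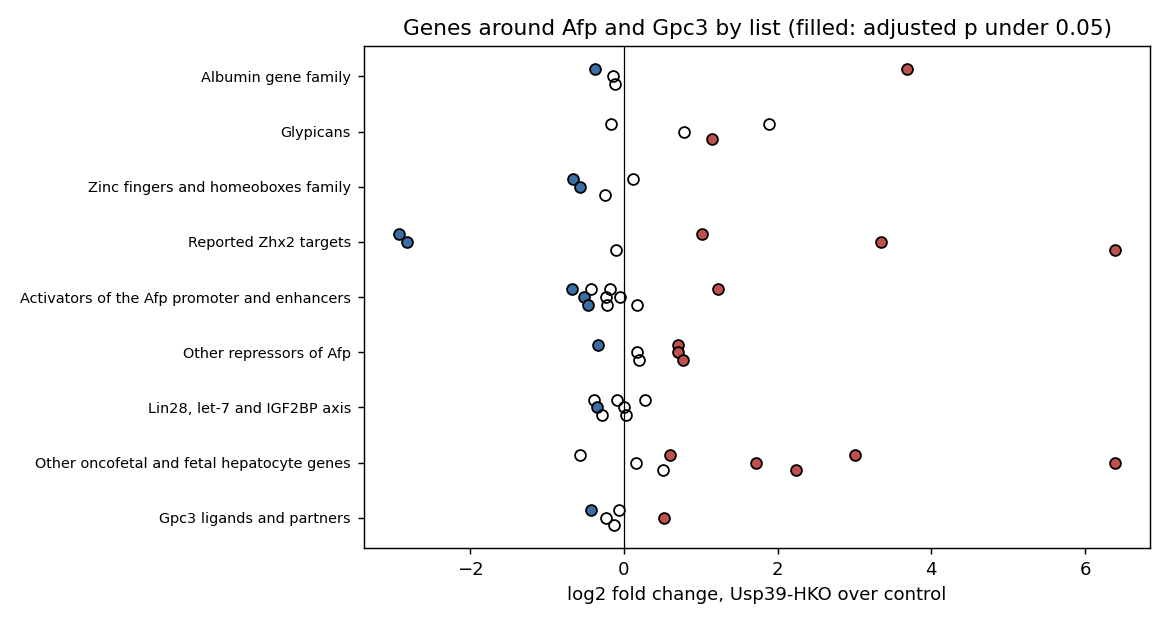
Difference between genotypes (log2 fold change, above 0 where Usp39-HKO is higher) for the tested genes of 9 lists around Afp and Gpc3, 1 point a gene, filled red or blue where the edgeR adjusted p was under 0.05 and open otherwise. Afp (3.68) stands alone in the albumin family and H19 (6.39) lies furthest right, in the lists of Zhx2 targets and of fetal genes.

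Markers of other liver cells moved with genotype, and several with A474. The calls below stand beside 10.9% of all genes called higher and 11.6% called lower. In whole liver, more cells of a type and more RNA per cell cannot be told apart. Of 6 biliary and progenitor markers, of which *Prom1* is also in the fetal list, 5 were tested and all 5 were called higher, and their summed FPKM was 26.6 to 29.0 in controls and 64.7, 140, 149 and 288 in A469, A470, A471 and A474. Most of each sum, 86.1% to 92.3%, was *Spp1*, the gene of the secreted protein osteopontin. The other 5 markers summed to 3.40 to 3.99 FPKM in controls and to 4.99, 12.1, 13.1 and 25.3 in the same order of mice. A474 was highest for all 6 by deposited FPKM, and also with FPKM divided by the TMM factors. The order of both sums was A469, A470, A471 and A474, while *Afp* was in the order A469, A471, A470 and A474. Of 6 genes of dividing cells, 5 were called higher, with sums of 11 to 15.9 FPKM in the controls against 29.4 to 41.8 in the *Usp39*-HKO group, A474 being the highest. Of 6 macrophage and Kupffer cell markers, 4 were called higher, with sums of 180 to 206 against 269 to 435, and A474 was again highest for all 6. Of 6 stellate and fibroblast markers, 4 were called higher, with sums of 18.6 to 27.4 against 32.6 to 76.6. Of 6 hepatocyte markers none was called higher and 2 were called lower. The 3 tested of 6 erythroid and fetal blood markers were all called lower, and the embryonic globin *Hbb-bh1* was listed at 0 in all 8 livers. Only 2 of 4 mesothelial, 2 of 4 lymphoid and 1 of 5 pancreas markers were tested, and none was called. All 5 endothelial markers were tested, and 2 were called lower. The part of these cells in the *Afp* and *Gpc3* values was not tested.

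The genes that followed *Afp* most closely within genotypes were *Cxcr4*, *Ano6*, *Calu*, *Ezh2* and the unnamed ENSMUSG00000108753, with r between 0.96 and 0.98 over 8 mice. Without A474 these r were 0.22 to 0.73, so that the likeness lay largely in that liver. For *Gpc3* they were *Ubap2l*, *Msi2*, *Wfdc17*, *Cd33* and *Patl1*, with r between 0.97 and 0.99, and 0.82 to 0.95 without A474. These r were picked as the highest of 14340 genes in the same libraries and are a description.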

How the data were processed

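The authors trimmed reads with Trim Galore 0.6.1, checked them with FastQC 0.11.9 (versions per the submitters' processing notes), aligned them to mm10 with HISAT2 and counted reads per gene with featureCounts. The library kit was NEB Next Ultra, and no strand setting was given in the sources used here. The deposited table holds raw counts and FPKM per mouse. FPKM recomputed from the counts, the listed exon length and each mouse's total matched the FPKM the authors deposited to within 2.0e-07 of the value. The authors' own DESeq2 columns (mean, log2 fold change, SE, p and adjusted p) were not used, and 314 repeated entries were dropped.

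Counts were tested with edgeR 4.0.16 (R 4.3.3, quasi-likelihood, TMM) on genes with FPKM of at least 0.5 in 4 mice. Genes were called at an adjusted p under 0.05. The fit was tested on simulated data. Single FPKM values were compared by an exact permutation test over the 70 splits of 8 mice. Alternatives used DESeq2 1.42.0, limma 3.58.1, other scalings and filters, and 1 mouse left out at a time. A robust prior and limma-voom quality weights were added after seeing the data. The members and lists were chosen with earlier results of these data known. Named were all 8 genes, *Usp39*, every gene of a list of at most 6, the called genes of longer lists up to the 4 with the largest change, and for *Afp* and *Gpc3* the 5 genes with the highest r. Any other gene named was chosen after its values were seen. Promoter sequences are from RefSeq, which matched 7 of the 8 genes.

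The floor was fixed at 3 counts in every library, and the depth, 8589636 to 10418450 counts, sets only what it equals in CPM. The edgeR p-values weigh the difference between genotypes against the spread between mice. No batch is given in the labels, and mouse names are not shared between groups, so no pairing was used.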

Additional observations from a re-analysis of the deposited data

Results flagged for a closer look

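Within each genotype, the highest or lowest of the 4 mice was compared with the nearest other mouse. It stood apart (a gap past Dixon's 95% limit for 4 samples) in 8 of 78 groups, over the 39 genes tested among those named. The chance rate of this limit, about 1 in 20, assumes normal values in independent groups. These groups share the same mice and part of the genes were named because they were called, so no comparison with that rate is made. In 4 of the 8 the mouse was A474, the highest *Usp39*-HKO liver, with 50.9 FPKM of *Afp*, 16.2 of *Gpc3*, 835 of *H19* and 5.43 of *Bex1*. In 3 it was the control A472, with the lowest control values of *Zhx3* (7.76 FPKM) and *Zhx1* (6.32) and the highest of *Cd24a* (2.27). In 1 it was the *Usp39*-HKO liver A469, with the highest *Furin* of its group (45.6 FPKM).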

How the results depend on the processing

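Changes of method moved *Afp*, *Gpc3*, *Zhx2*, *Igf2bp3* and *Usp39* across the threshold, and *Zhx3* was called in every alternative. For *Afp*, the value was 3.68 with DESeq2 (no p) and with a robust prior (not called), 1.79 and 2.35 with limma on log2(FPKM + 1) and log2(FPKM + 0.1), and 2.26 with voom weights (none called), and with 1 mouse left out it was 1.19 to 4.07, called in 4 of 8. *Gpc3* passed at 2.19 without TMM and 1.84 without a filter, was not called in the other 7 settings (1.11 to 1.9), and with 1 mouse left out ranged from 0.68 to 2.21, passing in 2 of 8. *Zhx2* did not pass at -0.33 without TMM, -0.30 and -0.37 with limma, and ranged from -0.72 to -0.41 with 1 mouse left out. *Igf2bp3* passed at 0.52 without TMM and 0.38 and 0.48 with limma. *Usp39* did not pass at -0.18 without TMM, -0.16 and -0.18 with limma, and ranged from -0.45 to -0.35 with 1 mouse left out, passing in 6 of 8. *Zbtb20* turned to 0.17 without TMM and 0.17 and 0.21 with limma (-0.20 to 0.22 with 1 mouse left out), and *Zfhx3* to 0.18, 0.11 and 0.20, and to 0.048 with voom weights (-0.18 to 0.20). Without TMM and with limma, in this order, *Alb* turned to 0.084, 0.075 and 0.075, *Gc* to 0.12, 0.11 and 0.11, *Gpc4* to 0.074, 0.069 and 0.071, and *Zhx1* to 0.0013, 0.0052 and 0.0068, where the median of all genes was 0.24, 0.17 and 0.22. *Homez* turned to -0.044 with voom weights (-0.084 to 0.25 with 1 mouse left out), and *Mup20* to 0.13 without TMM (-1.0 to 0.25). The cause of these changes was not tested.

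Of the 7 tested genes, the number called higher was 1 as reported, 3 without TMM, 2 without a filter, and 0 with DESeq2, the robust prior and voom weights (2, 2 and 1 at an unadjusted p under 0.05), and 0 to 2 with 1 mouse left out. The number called lower was 2 as reported, 1 without TMM and with either limma fit, and 1 to 2 with 1 mouse left out. Over the genes of the lists, 11 were called lower as reported, 4 without TMM and with either limma fit, and 4 to 10 with 1 mouse left out. Over all 14340 genes, 1664 were called lower as reported, 696 without TMM, 637 and 633 with limma, and 949 to 1666 with 1 mouse left out. The counts of the 7 genes and of the lists thus moved along with those of the whole table between scalings. The calls over all genes, 3225 as reported, ranged from 1931 without A473 to 3510 without A469, with 2094 without A474 and 2043 without A475. The depth limits *Afp* and *Gpc3* in controls to 25 to 37 counts a library.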
